A study of Mus musculus with 6 samples.

Results

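The mouse mitochondrial genome carries 37 genes, and all 37 were found among the 54532 gene identifiers of the deposited count table by their symbols, which begin with mt-. They are 13 protein genes, 22 tRNA genes and 2 rRNA genes, taken by symbol alone. The choice of this gene set was made with earlier results of these data known, a result for mt-Te among them. RNA was sequenced from epididymal white adipose tissue, the visceral fat pad beside the epididymis, of mice kept for 16 weeks on a high-fat diet. The 3 knockout libraries came from PD-1fl/fl Lyz2-Cre mice, in which Cre driven by the Lyz2 gene deletes PD-1 in myeloid cells such as macrophages and neutrophils. The 3 control libraries came from PD-1fl/fl littermates, which carry the same floxed allele without Cre. The other cells of the fat pad, adipocytes and lymphocytes included, are not targeted by this Cre. The labels do not say whether each library came from one animal or from several, and give no age beyond the time on the diet. Group names here are those of the labels.

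Library totals ran from 20108185 to 27225533 counts. The targeted gene, Pdcd1, had 19, 19 and 5 counts in the knockout libraries and 13, 0 and 0 in the controls, so at this depth it did not set the groups apart as labelled and is no check of them. CPM below are counts scaled to a common library size by TMM. Markers of fat were strong in 5 libraries: the 14 adipocyte markers summed to 29876 to 80887 CPM in these. Control replicate 2 stood apart, with 7628 CPM of the adipocyte markers and 261262 CPM of the 16 hepatocyte markers, so its label as adipose tissue goes against its markers. The hepatocyte markers summed to 8217 CPM in control replicate 1 and 9848 in control replicate 3, against 212, 1630.2 and 2280.2 in knockout replicates 1 to 3. In control replicate 1 that sum came mostly from Cyp2e1, which adipocytes also express, whereas Alb had 197 counts there and 105789 in control replicate 3. The 15 macrophage markers summed to 4229, 5308 and 1189.7 CPM in the knockout libraries and 960.2, 532 and 920.0 in the controls. Results are therefore given with all 6 libraries and without control replicate 2, and the part of the other tissues and cell types in them was not tested.

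Mitochondrial DNA is a small circle that is transcribed from both strands into long precursors. The tRNA genes lie between most of the protein and rRNA genes, and cutting at the ends of each tRNA releases the pieces on either side. RNase P cuts at the 5′ end and the enzyme encoded by Elac2 at the 3′ end. Most mRNAs and both rRNAs then receive short poly(A) tails, whereas a mature tRNA ends in CCA. The 13 proteins are core subunits of respiratory complexes I, III and IV and of ATP synthase, which make ATP from the oxidation of fuel and, in white adipocytes, support fatty acid synthesis and oxidation. All other proteins of the mitochondrion are encoded in the nucleus.

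The genes are packed end to end on the chromosome M of GRCm38 (mm10). In the annotation used (GENCODE vM21), 18 of the 22 tRNA genes lie 5 or fewer bases from, or overlap, a neighbour on both sides. The plus strand carries 28 genes and the minus strand 9, which are mt-Nd6 and 8 of the tRNA genes. mt-Te, the gene of the glutamate tRNA, occupies chrM:14071-14139 on the minus strand. It abuts mt-Nd6 at chrM:13552-14070 on the same strand with 0 bases between them, and lies 5 bases from mt-Cytb at chrM:14145-15288 on the plus strand. Reads of opposite strands in such neighbours are separated only if the counting used strand, which the sources used here do not give.

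The sequences of 4 minus-strand tRNA genes are shown because the tRNA results turn on them; each is the gene sequence 5′ to 3′ on its own strand from the GENCODE vM21 transcripts, with the anticodon in capitals.
mt-Te: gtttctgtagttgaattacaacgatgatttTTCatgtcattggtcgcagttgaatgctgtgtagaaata
mt-Tp: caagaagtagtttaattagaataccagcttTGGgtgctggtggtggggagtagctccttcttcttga
mt-Tn: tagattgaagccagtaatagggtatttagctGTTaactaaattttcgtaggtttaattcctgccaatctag
mt-Tc: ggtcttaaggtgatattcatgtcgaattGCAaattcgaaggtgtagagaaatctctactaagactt
They lie at chrM:14071-14139, chrM:15356-15422, chrM:5089-5159 and chrM:5192-5257. The anticodons, found in each sequence as 3 bases between a T and a purine, read glutamate, proline, asparagine and cysteine codons. The starts of the protein genes on either side of mt-Te are shown for the same reason, with the start codon in capitals, at chrM:14041-14070 on the minus strand for mt-Nd6 and chrM:14145-14174 on the plus strand for mt-Cytb.
mt-Nd6 start: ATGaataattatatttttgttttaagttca
mt-Cytb start: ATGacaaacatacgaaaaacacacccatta
The 4 tRNA genes shown are 66 to 71 bases long, so a count in one of them can come from a fragment that reaches into a neighbour.

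Mitochondrial genes took a smaller share of the counts in every knockout library than in any control. Their share was 2.64%, 3.19% and 3.89% in the knockouts and 9.08%, 6.90% and 5.45% in the controls. The groups did not overlap, and the highest knockout lay below the lowest control, replicate 3. The mean was 3.24% ± 0.625 against 7.14% ± 1.83 (SD, n = 3 each), a difference of 3.91 percentage points, or 2.21-fold. The exact two-sided permutation p was 0.1, the smallest that 3 against 3 libraries allow, and 0.338 after adjustment over the 27 shares and ratios compared. Without control replicate 2 the fold was 2.24. With shares of TMM-scaled library sizes or of summed FPKM the difference (knockout minus control) was -6.05 and -7.30 percentage points, also without a lower p than 0.1. Control replicate 1, in which Alb was near its level in knockout replicate 1, held the highest share. The 95% Clopper-Pearson interval of a library's share, which covers counting error only, was no wider than 6.89% to 6.91% (control replicate 2). In a bulk tissue, fewer cells rich in mitochondrial RNA and less such RNA per cell cannot be told apart.

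Protein and tRNA genes each took a smaller share in every knockout than in any control, and the rRNA genes overlapped. The protein genes made up 2.51%, 3.08% and 3.70% in the knockout libraries and 8.79%, 6.46% and 5.28% in the controls of all counts, with no overlap and a fold of 2.21 (exact permutation p = 0.1). The tRNA genes together made up 0.0106%, 0.0101% and 0.0150% in the knockout libraries and 0.0431%, 0.0321% and 0.0206% in the controls, again with no overlap, and the fold was 2.69 (exact permutation p = 0.1). The rRNA genes made up 0.119%, 0.0983% and 0.172% in the knockout libraries and 0.248%, 0.410% and 0.148% in the controls, and here knockout replicate 3 lay above control replicate 3 (exact permutation p = 0.2). For the rRNAs the fold was 2.08 with all libraries and 1.53 without control replicate 2, whose value was the highest. All of these p-values were at least 0.338 after adjustment over the 27 comparisons.

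**Figure D1:**
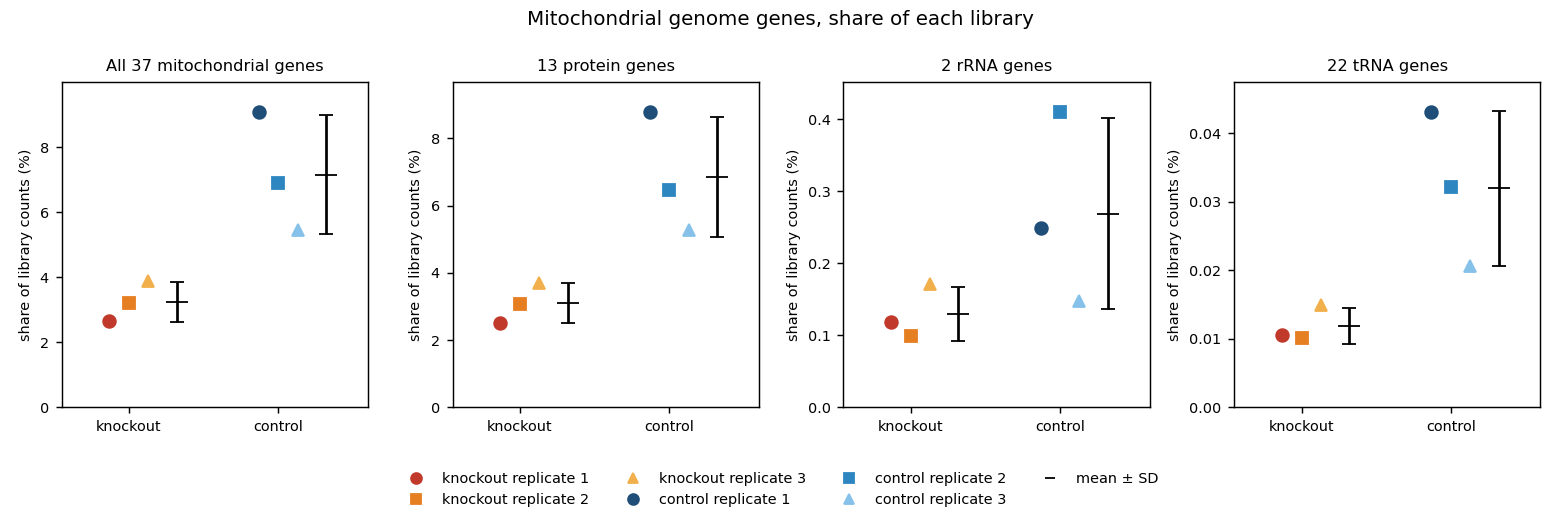
Share of each library's counts (percent, vertical axis from 0) held by all 37 mitochondrial genes and by the protein, rRNA and tRNA classes, with 1 point per library and the group mean with its SD in black. All knockout points lie below all control points for the total, the protein genes and the tRNA genes, while for the rRNA genes knockout replicate 3 lies above control replicate 3.

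Within the mitochondrial counts, the makeup by class overlapped between the groups. Protein genes held 93.6% to 96.9% of the mitochondrial counts over the 6 libraries. The rRNA share of mitochondrial counts was 4.50%, 3.08% and 4.42% in the knockout libraries and 2.74%, 5.95% and 2.72% in the controls, with control replicate 2 highest and the other controls lowest (exact permutation p = 0.8). The tRNA share was 0.400%, 0.317% and 0.385% in the knockout libraries and 0.474%, 0.465% and 0.377% in the controls (exact permutation p = 0.3).

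Gene by gene, 23 of the 37 passed the filter on low counts and were tested: 12 of 13 protein genes, both rRNA genes and 9 of 22 tRNA genes. All 23 had a negative fold change with all 6 libraries, 21 did without control replicate 2, and 22 with library totals in place of TMM as the scale. That other scale moved the median log2 fold change of all 15928 tested genes from -0.03 to 0.34 and left 27.6% of them negative. The median over the 23 was -1.78 with TMM, -1.34 without control replicate 2, -1.67 without control replicates 2 and 3, and -1.21 with library totals. None passed the edgeR quasi-likelihood test at an adjusted p of 0.05, where the share of all tested genes called was 0% as well (0 of 15928, with 1377 at an unadjusted p under 0.05). The adjusted edgeR p of the 23 was 0.56 to 0.957. The unadjusted edgeR p was under 0.05 for 10 of the 23, all lower, where 4.27% of all tested genes were lower at that level. Without control replicate 2, 14 reached it, against 3.5% of all tested genes lower. The knockouts lay below all controls in scaled CPM in 16 of the 23, against 5.61% of all tested genes, and in share of total counts in 14, against 2.07%.

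With DESeq2, 7 of the 25 mitochondrial genes that received an adjusted p were lower in the knockouts, against 1.71% of all genes called lower. They were mt-Co1, mt-Atp6, mt-Nd5, mt-Cytb, mt-Tn, mt-Ty and mt-Te. Without control replicate 2, DESeq2 called 7 of 22, against 0.683% of all genes called lower, and 6 of these were in both lists: mt-Nd4l took the place of mt-Cytb. limma-voom called 0 of all genes. Because edgeR and DESeq2 differ on these genes, they are described below by their values in each library, and fold changes without another tool's name are those of edgeR.

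**Figure D2:**
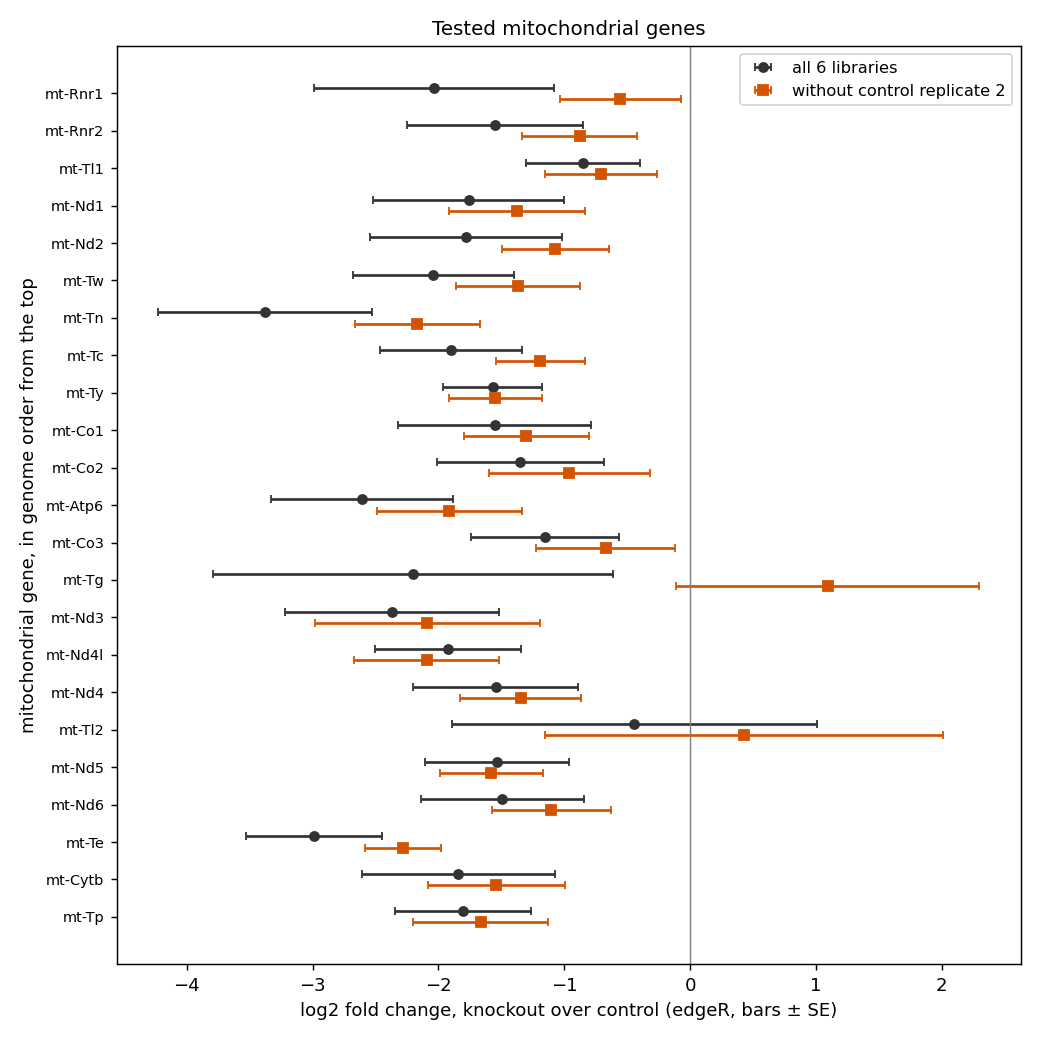
edgeR log2 fold change (knockout over control, horizontal axis, bars ± SE) of the 23 tested mitochondrial genes in genome order, with all 6 libraries (circles) and without control replicate 2 (squares). All circles lie to the left of 0, from -0.44 for mt-Tl2 to -3.38 for mt-Tn, and the squares of mt-Tg and mt-Tl2 lie to the right of 0.

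Complex I, which oxidizes NADH, takes 7 subunits from mitochondrial DNA. mt-Nd5, one of the membrane subunits that pump protons, had 1193, 1968 and 1851 CPM in the knockout libraries and 5813, 4425 and 4257 in the controls. In scaled CPM every control was above every knockout, the highest knockout being replicate 2. In raw counts knockout replicate 2 (56108) lay above control replicate 2 (49471), whose TMM factor was 0.559. As a share of total counts it lay only just below that control. The means were 1671 ± 418 against 4831 ± 854 CPM, and the log2 fold change was -1.53 ± 0.57, or -1.58 without control replicate 2 (DESeq2 adjusted p = 0.0133 and 0.00286). mt-Nd4, another proton-pumping subunit, averaged 2412 ± 884 against 7037 ± 2253 CPM with a log2 fold change of -1.54 ± 0.65 and -1.34 without control replicate 2. mt-Nd1 and mt-Nd2, which belong to the same membrane arm, averaged 3796 ± 1010.2 against 12857 ± 6734 and 2632 ± 641 against 9035 ± 6178 CPM. Their log2 fold changes were -1.76 ± 0.76 and -1.78 ± 0.76, and -1.38 and -1.07 without control replicate 2.

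mt-Nd6, the only protein gene on the minus strand, had 789, 1008 and 1760.1 CPM in the knockout libraries and 3145, 4904 and 1958 in the controls. The groups did not overlap, but control replicate 3 was close to knockout replicate 3. Its log2 fold change was -1.49 ± 0.65, and -1.10 without control replicate 2. The remaining subunits, mt-Nd3 and mt-Nd4l, were thinly counted. mt-Nd3 had 4.41, 5.02 and 3.92 CPM in the knockout libraries and 34.9, 31.0 and 2.97 in the controls, with control replicate 3 below all knockouts (log2 fold change -2.37 ± 0.85). mt-Nd4l had 1.21, 2.42 and 1.32 CPM in the knockout libraries and 10.1, 4.56 and 4.18 in the controls (log2 fold change -1.93 ± 0.58). These did not overlap in scaled CPM, but did in raw counts and in share of total counts. Knockout replicate 2 had 69 raw counts and control replicate 2 had 51.

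Complex III takes mt-Cytb, the subunit that holds its b hemes, from mitochondrial DNA. It had 3309, 4151 and 6937 CPM in the knockout libraries and 18701, 23681 and 9234 in the controls. Control replicates 1 and 2 were the highest, and control replicate 3 was still above knockout replicate 3. The log2 fold change was -1.84 ± 0.77, and -1.54 without control replicate 2, and the DESeq2 adjusted p was 0.0395 and 0.0506.

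Complex IV, cytochrome c oxidase, takes its 3 core subunits from mitochondrial DNA. mt-Co1, the catalytic subunit and the mitochondrial gene with the most counts, had 8469, 9592 and 12067 CPM in the knockout libraries and 32629, 38746 and 17029.8 in the controls. All controls lay above all knockouts, with control replicate 3 the lowest of them. The means were 10043 ± 1841 against 29468 ± 11198 CPM, the log2 fold change was -1.55 ± 0.76 or -1.30 without control replicate 2, and the DESeq2 adjusted p was 0.0444 and 0.0425. mt-Co2, which receives electrons from cytochrome c, had far fewer counts, 61.9, 33.4 and 102 CPM in the knockout libraries and 197, 249 and 57.5 in the controls, and control replicate 3 lay among the knockouts. mt-Co3 averaged 45.9 ± 23.02 against 102 ± 56.4 CPM, and its groups overlapped too. The log2 fold changes of these genes were -1.35 ± 0.66 and -1.15 ± 0.59.

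ATP synthase takes mt-Atp6, part of its proton channel, and mt-Atp8 from mitochondrial DNA. mt-Atp6 had 29.3, 22.3 and 35.0 CPM in the knockout libraries and 175, 311 and 42.6 in the controls. The knockouts lay close together and below each control, of which replicate 3 was near them. The log2 fold change was -2.61 ± 0.72, the most negative of the protein genes, and -1.91 without control replicate 2. The DESeq2 adjusted p was 0.0226 and 0.0493. mt-Atp8 had only 3, 4 and 0 counts in the knockouts and 17, 0 and 6 in the controls and was not tested.

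The rRNA genes encode the RNAs of the small (mt-Rnr1, 12S) and large (mt-Rnr2, 16S) subunits of the mitochondrial ribosome. mt-Rnr1 had 274, 285 and 590.3 CPM in the knockout libraries and 730.3, 3587 and 394 in the controls. Control replicate 2 was the highest library by a wide margin, and control replicate 3 lay below knockout replicate 3. Its log2 fold change moved from -2.04 ± 0.95 to -0.55 without control replicate 2. mt-Rnr2 had 712, 502 and 1011 CPM in the knockout libraries and 1802, 3793 and 922 in the controls, also with overlap, and moved from -1.55 ± 0.70 to -0.88. There were 94.6 counts of mt-Rnr1 per 100 of mt-Rnr2 in control replicate 2 and 38.4 to 58.4 in the others. The libraries were made from purified mRNA, and 12 nuclear RNAs without a poly(A) tail summed to 0.183 to 1.20 CPM per library.

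Per length, the levels of neighbouring genes were far apart. On the scale of CPM per kilobase (knockout and control means), mt-Co1 had 6500.2 and 19073, mt-Cytb 4195 and 15039.7 and mt-Nd1 3967 and 13434. mt-Nd2 followed with 2535 and 8704, mt-Nd6 with 2285 and 6427 and mt-Nd4 with 1750.4 and 5107. The stretch from mt-Co2 to mt-Nd4l was lower in both groups: mt-Co2 had 96.1 and 245, mt-Atp6 42.4 and 259, mt-Co3 58.6 and 130.2, mt-Nd3 12.8 and 66.0, mt-Nd4l 5.55 and 21.1 and mt-Atp8 0.389 and 1.40. These 6 genes together held 0.316% to 0.608% of the mitochondrial counts in a library, with the groups overlapping (exact permutation p = 1).

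**Figure D3:**
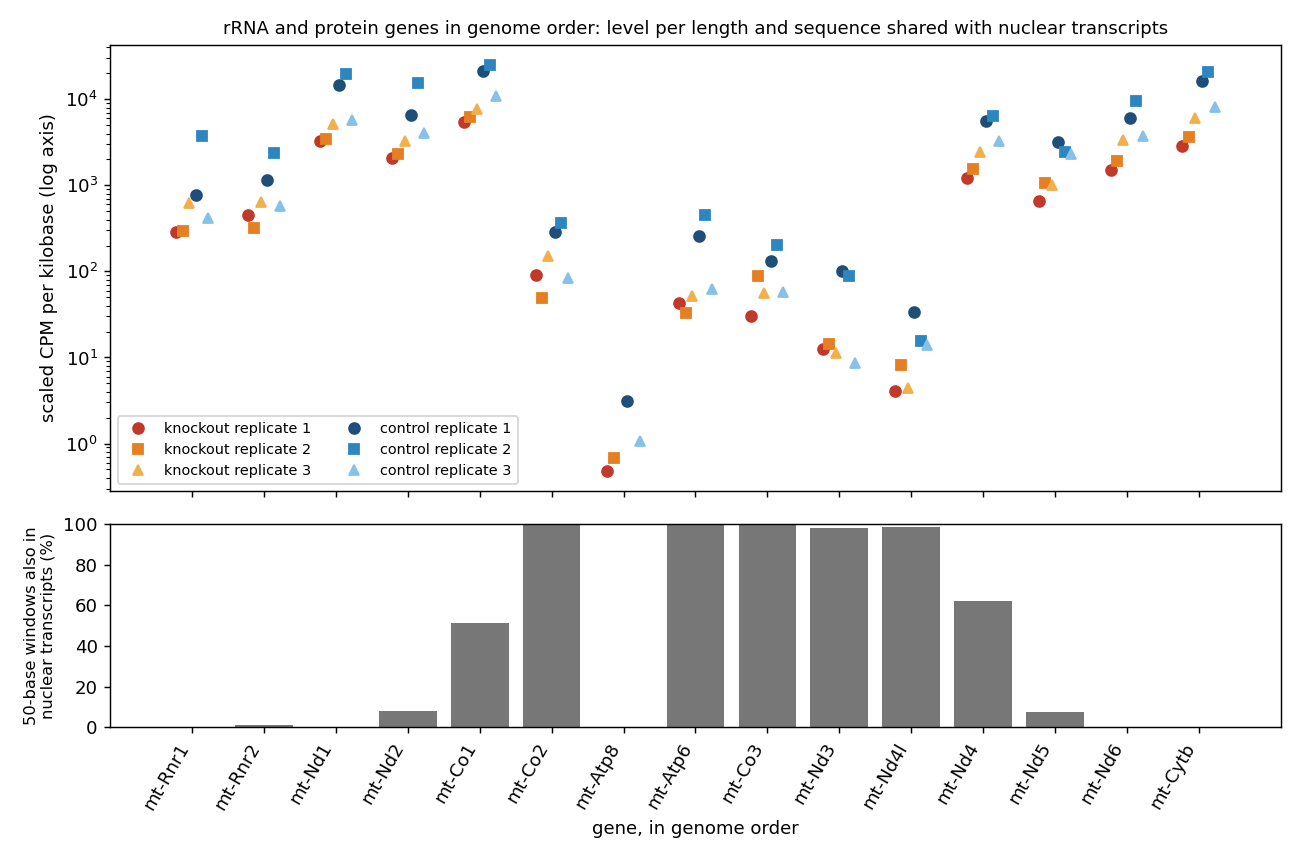
Scaled CPM per kilobase (log axis, upper panel, 1 point per library; a value of 0 is not drawn) of the rRNA and protein genes in genome order, and the percent of each gene's 50-base windows also found in annotated nuclear transcripts (bars, lower panel). The stretch from mt-Co2 to mt-Nd4l is low in all 6 libraries, and its genes other than mt-Atp8 have nearly all of their windows in nuclear transcripts.

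The low stretch was also the one with near-identical copies in the nucleus. A copy of mitochondrial DNA on chromosome 1 is annotated as a row of pseudogenes on the minus strand between chr1:24611535 and chr1:24616197. Of the 50-base windows of each gene, 100% were found in annotated nuclear transcripts for mt-Co2, 99.9% for mt-Co3, 99.5% for mt-Atp6, 98.8% for mt-Nd4l and 98.0% for mt-Nd3. The share was 62.2% for mt-Nd4, 51.1% for mt-Co1, 8.19% for mt-Nd2, 7.61% for mt-Nd5 and 1.04% for mt-Rnr2. It was 0% for mt-Nd1, mt-Nd6, mt-Cytb, mt-Atp8, mt-Rnr1 and all 22 tRNA genes, among annotated transcripts only.

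The copy of mt-Co2, Gm28661, equals mt-Co2 in all 681 bases aligned, and Gm13341 on chromosome 2 is a more diverged copy. Their first 60 bases are shown to make visible what a short read would have to tell apart, with bases that differ from mt-Co2 in capitals (GENCODE vM21).
mt-Co2: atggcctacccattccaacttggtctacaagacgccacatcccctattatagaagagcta
Gm28661: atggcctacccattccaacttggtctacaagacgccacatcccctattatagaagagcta
Gm13341: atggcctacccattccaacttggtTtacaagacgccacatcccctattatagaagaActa
Over this stretch Gm28661 has 0 differences from mt-Co2 and Gm13341 has 2.

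Counts were split between the mitochondrial genes and these copies. Summed over the 6 libraries, mt-Co2 had 15074 against 10843 counts for Gm28661, mt-Atp6 11742 against 8282 for Gm10925 and mt-Co3 9604 against 7249 for Gm28437. mt-Nd3 had 1740 against 901 for Gm28438 and mt-Nd4l 574 against 409 for Gm10222. The nuclear gene thus held 34.1% to 43.0% of the counts of these pairs, but 0.405% and 0.361% for mt-Co1 with Gm29216 and mt-Nd4 with Gm28439. Gm28661 itself had 889, 846 and 1539 counts in the knockouts and 3811, 2477 and 1281 in the controls. Of the 6 copies in the list fixed for this purpose, all 6 had negative fold changes, where 52.0% of all tested genes did (median -1.23, and -0.88 without control replicate 2). DESeq2 called 2 of them lower, against 1.71% of all genes, and edgeR called 0. No source used here gives the treatment of reads that match several places, and the levels of mt-Co2, mt-Co3, mt-Atp6, mt-Nd3 and mt-Nd4l and those of their copies are uncertain. Leaving out the 7 mitochondrial genes with most of their windows repeated, or adding the counts of the 14 nuclear genes that share windows (4481 to 14530 counts per library), left the knockouts below the controls in total mitochondrial share, by differences of -2.32 and -3.92 percentage points.

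The tRNA genes fell into a counted few and an almost uncounted majority. More than 20 counts in every library were found for 7 of them: mt-Tp, mt-Tc, mt-Tn, mt-Te, mt-Ty, mt-Tl1 and mt-Tw. Of these, 5 lie on the minus strand. Another 11 reached at most 48 counts in any library, and 4 (mt-Tf, mt-Ts1, mt-Td and mt-Tk) had 0 counts in all 6. The 8 minus-strand genes held 86.4% to 96.7% of the tRNA counts of a library (exact permutation p = 0.3 between the groups). A count of 0 in these libraries is a limit of about 3 assigned counts per library and not an absence of the tRNA. Reads that match several places may not have been counted, and nuclear copies outside annotated transcripts were not examined.

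**Figure D4:**
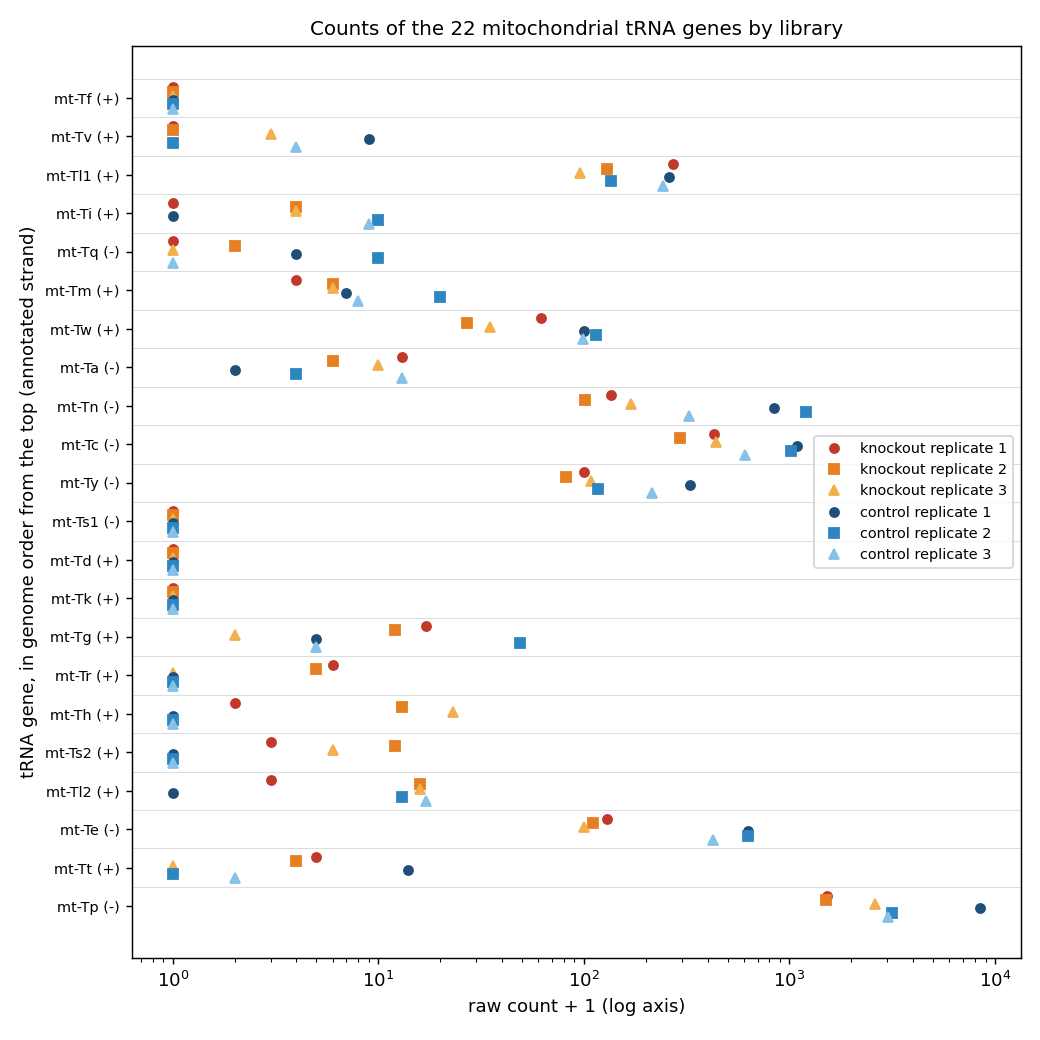
Raw counts plus 1 (log axis) of the 22 tRNA genes in genome order from the top, with the annotated strand beside each name and 1 point per library. The 7 genes with more than 20 counts in every library stand to the right, and for mt-Te, mt-Tn, mt-Tc, mt-Ty, mt-Tp and mt-Tw all control points lie to the right of all knockout points.

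mt-Te had 129, 110 and 99 in the knockouts and 626, 626 and 422 in the controls, as raw counts. The 3 knockouts lay close together, and the lowest control, replicate 3, had several times the counts of the highest of them. In scaled CPM the means were 3.97 ± 0.211 against 31.6 ± 21.5, and the log2 fold change was -2.99 ± 0.54. It was -2.28 without control replicate 2, -2.54 without control replicates 2 and 3, and -2.35 with library totals as the scale. The unadjusted edgeR p was 0.00126 and the adjusted p 0.560, while DESeq2 gave an adjusted p of 0.00101 with all libraries and 8.85e-07 without control replicate 2. The 3 knockouts varied by an SD of 0.211 CPM and the controls by 21.5, most of it from control replicate 2.

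Against its own genome, mt-Te was lower as well. It was singled out with an earlier result for mt-Te in these data known, so the p-values of its shares and ratios are not independent of that choice. Its share of mitochondrial counts was 0.0192%, 0.0151% and 0.0106% in the knockout libraries and 0.0253%, 0.0451% and 0.0319% in the controls, with no overlap, and the control mean was 2.28 times the knockout mean (1.91 without control replicate 2; exact permutation p = 0.1, adjusted 0.338). mt-Tn was the other tested gene with this pattern, at 0.0200%, 0.0137% and 0.0181% in the knockout libraries and 0.0339%, 0.0864% and 0.0245% in the controls and folds of 2.80 and 1.69 (exact permutation p = 0.1, adjusted 0.338). In all, 2 of the 23 tested genes had this pattern, each at the smallest permutation p that 3 against 3 libraries allow. How many would have it without a difference between the groups was not tested. The count of 2 is therefore not a result about these genes. No tested gene had a share above all controls in all 3 knockouts. Of the genes not tested with all 6 libraries, mt-Th and mt-Ts2 did, on few counts. These shares remove the difference in the mitochondrial genes as a whole, which the CPM values contain.

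The neighbours of mt-Te overlapped between the groups in the same measure. mt-Nd6, which shares its strand and is joined to it, had a share of mitochondrial counts of 3.60%, 3.94% and 4.85% in the knockout libraries and 3.40%, 3.95% and 4.04% in the controls (exact permutation p = 0.6). mt-Cytb had a share of 15.1%, 16.2% and 19.1% in the knockout libraries and 20.2%, 19.1% and 19.1% in the controls (exact permutation p = 0.3). Counts of mt-Te per 100 counts of mt-Nd6 were 0.534, 0.383 and 0.218 in the knockout libraries and 0.745, 1.14 and 0.790 in the controls, with no overlap (exact permutation p = 0.1, adjusted 0.338). Per 100 counts of mt-Cytb they were 0.127, 0.0929 and 0.0554 in the knockout libraries and 0.125, 0.236 and 0.168 in the controls, and knockout replicate 1 lay just above control replicate 1 (exact permutation p = 0.2). mt-Nd6 per 100 counts of mt-Cytb was 23.8, 24.3 and 25.4 in the knockout libraries and 16.8, 20.7 and 21.2 in the controls, with every knockout above every control (exact permutation p = 0.1, adjusted 0.338). mt-Tt, the threonine tRNA gene that follows mt-Cytb, had raw counts of 4, 3 and 0 in the knockouts and 13, 0 and 1 in the controls.

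Ratios to other minus-strand tRNA genes did not all separate the groups. Counts of mt-Te per 100 counts of mt-Tc were 30.2, 37.4 and 22.7 in the knockout libraries and 57.9, 61.3 and 69.8 in the controls, with no overlap (exact permutation p = 0.1, adjusted 0.338). Per 100 counts of mt-Tp they were 8.48, 7.32 and 3.82 in the knockout libraries and 7.39, 19.9 and 13.9 in the controls, with knockout replicate 1 above control replicate 1. Per 100 counts of mt-Tn they were 96.3, 110 and 58.6 in the knockout libraries and 74.8, 52.2 and 130.2 in the controls, with full overlap (exact permutation p = 0.9).

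**Figure D5:**
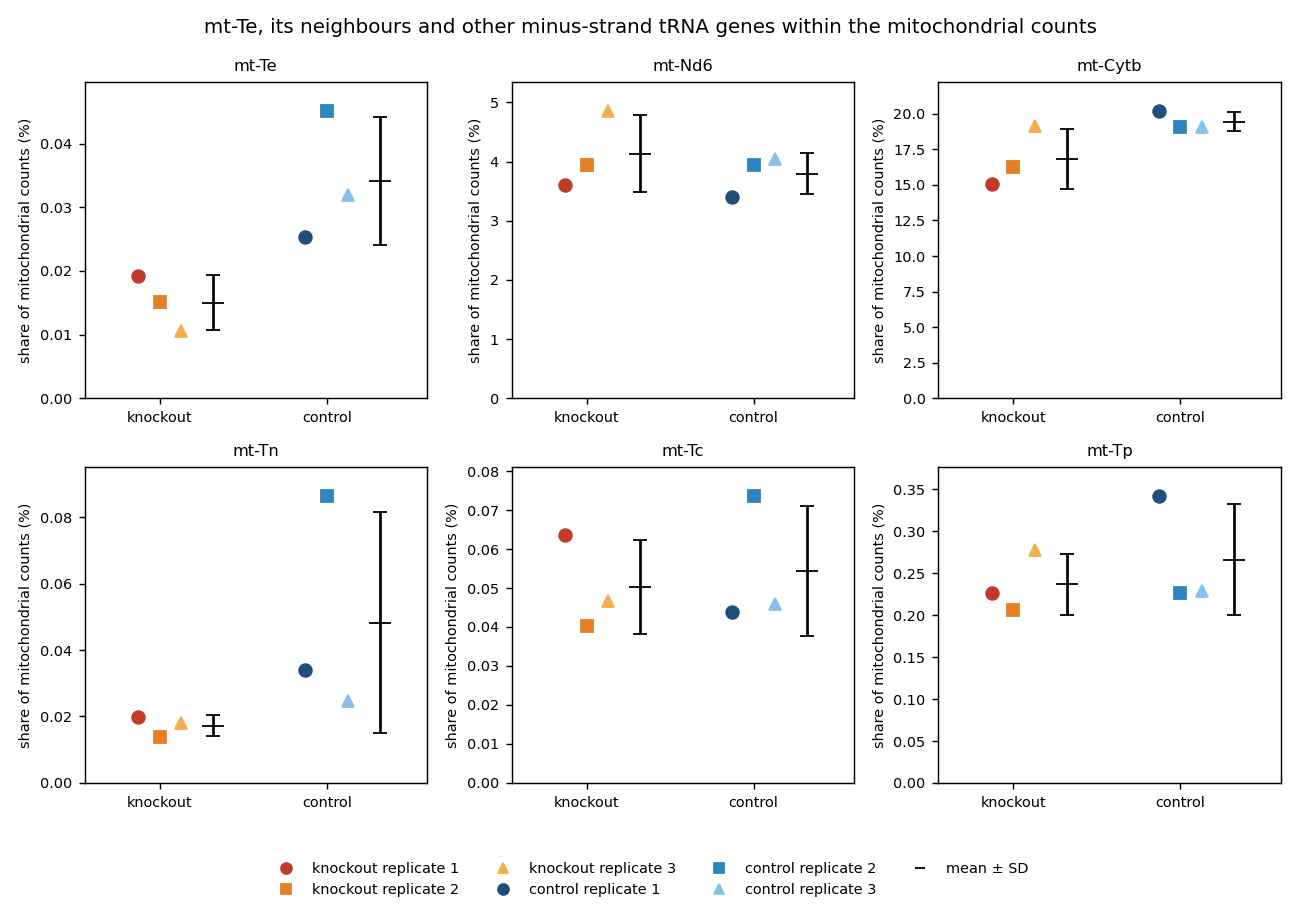
Share of the mitochondrial counts of each library (percent, vertical axes from 0, each panel on its own scale) held by mt-Te, its neighbours mt-Nd6 and mt-Cytb, and the minus-strand tRNA genes mt-Tn, mt-Tc and mt-Tp, with 1 point per library and the mean with its SD in black. All knockout points lie below all control points for mt-Te and mt-Tn, and the groups overlap in the other panels.

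mt-Tn, the asparagine tRNA gene, had raw counts of 134, 100 and 169 in the knockouts and 837, 1199 and 324 in the controls. Control replicate 2 was the highest and the knockouts the lowest, without overlap. The log2 fold change was -3.38 ± 0.85, the most negative of all 23, and -2.17 without control replicate 2 (DESeq2 adjusted p = 0.00659 and 0.00758). mt-Tn lies 32 bases from mt-Tc, and that gap in the annotation is where the light-strand origin of replication is known to lie. mt-Tc, the cysteine tRNA gene, had 427, 294 and 437 in the knockouts and 1082, 1022 and 605 in the controls, and its log2 fold change was -1.90 ± 0.56 or -1.19 without control replicate 2. mt-Ty, the tyrosine tRNA gene 2 bases beyond, had 99, 81 and 107 in the knockouts and 326, 116 and 213 in the controls. Its counts did not overlap between the groups, and its log2 fold change kept its size, at -1.57 ± 0.39 and -1.55 (DESeq2 adjusted p = 0.0161 and 0.0173).

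mt-Tp, the proline tRNA gene at the end of the gene order, was the most counted tRNA gene, with 1521, 1502 and 2593 in the knockouts and 8466, 3144 and 3031 in the controls. Control replicate 1 was far above the rest, and the others still lay above all knockouts. Its log2 fold change was -1.80 ± 0.54, and -1.66 without control replicate 2. Per kilobase it had 1010.0 and 3529 CPM, above mt-Nd5 with 916 and 2649 and mt-Te with 57.6 and 458. The tested plus-strand tRNA genes had few counts: mt-Tl1, a leucine tRNA gene beside mt-Rnr2, had 270, 128 and 95 in the knockouts and 260, 135 and 242 in the controls, as raw counts. These overlapped, while in scaled CPM each knockout lay below each control, knockout replicate 1 (8.82) just below control replicate 3 (8.87), and the log2 fold change was -0.85 ± 0.45. mt-Tw, the tryptophan tRNA gene, had 61, 26 and 34 in the knockouts and 99, 114 and 98 in the controls, without overlap (log2 fold change -2.04 ± 0.64, and -1.37 without control replicate 2).

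mt-Tg and mt-Tl2 had no stable direction. mt-Tg, a glycine tRNA gene, had 16, 11 and 1 in the knockouts and 4, 48 and 4 in the controls, and its log2 fold change moved from -2.20 ± 1.59 to 1.09 without control replicate 2. mt-Tl2, the other leucine tRNA gene, had 2, 15 and 15 in the knockouts and 0, 12 and 16 in the controls, and moved from -0.44 ± 1.45 to 0.43. Both values rest on few counts. Among the genes not tested with all 6 libraries, mt-Tm, the methionine tRNA gene, had 3, 5 and 5 in the knockouts. It had 6, 19 and 7 in the controls, with no overlap. mt-Th, mt-Ts2 and mt-Tr, plus-strand genes of histidine, serine and arginine tRNAs, had no count in any control. mt-Th had 1, 12 and 22 counts in the knockouts, mt-Ts2 had 2, 11 and 5, and mt-Tr had 5, 4 and 0. The control totals allow up to 3 counts per library for each, so the lowest knockouts are not separable from them. The other tRNA genes not tested with all 6 libraries, mt-Tv, mt-Ti, mt-Tq, mt-Ta and mt-Tt, had 0 to 13 counts per library.

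The nuclear genes that transcribe and process mitochondrial RNA were read from lists fixed for this purpose, and none of their members was called by edgeR (0 of all 15928 genes were). Of 18 tested genes of mitochondrial DNA transcription and replication, 16 had negative and 2 positive fold changes, with a median of -0.85 that moved to -0.16 without control replicate 2. There, as with library totals as the scale, 13 were negative. Of all tested genes, 52.0% were negative with all libraries, 52.9% without control replicate 2 and 27.6% with library totals. Polrmt, the mitochondrial RNA polymerase, had 19.5, 19.9 and 17.8 CPM in the knockout libraries and 15.1, 13.2 and 14.5 in the controls. Each knockout was above each control, by a log2 fold change of 0.41 ± 0.25 (adjusted p = 0.652 by edgeR). Tfam, which packages the DNA and starts transcription, had 28.8, 23.9 and 29.2 CPM in the knockout libraries and 30.3, 131 and 27.8 in the controls; control replicate 2 alone was high, and the log2 fold change moved from -1.21 ± 0.65 to -0.08 without it. Tfb2m, the transcription initiation factor, had -0.88 ± 0.36 and -0.67.

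Of 19 tested genes of RNA processing and stability, 19 had negative fold changes (median -0.60). Without control replicate 2, 16 did (median -0.24), and with library totals 11 did (median -0.09). Elac2, which cuts the 3′ ends of tRNAs, had 24.4, 22.9 and 22.7 CPM in the knockout libraries and 30.4, 27.7 and 30.6 in the controls. Each control was above each knockout, with a log2 fold change of -0.34 ± 0.23, -0.37 without control replicate 2 and 0.05 with library totals as the scale. Trmt10c, a subunit of mitochondrial RNase P, had -1.09 ± 0.60 and -0.23 without control replicate 2. Lrpprc, which stabilizes mitochondrial mRNAs, had 52.8, 45.8 and 46.2 CPM in the knockout libraries and 41.7, 321 and 51.6 in the controls. Its log2 fold change was -1.52 ± 0.82 with all libraries and 0.06 without control replicate 2. Fastkd1, of the FASTK family of mitochondrial RNA-binding proteins, had -1.47 ± 0.66 and -0.37.

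Of 22 tested genes of aminoacyl-tRNA synthesis, 21 had negative fold changes (median -0.48). Without control replicate 2, 17 did (median -0.14), and with library totals 9 did (median 0.05). Ears2, which charges the glutamate tRNA of mt-Te, had 9.77, 6.59 and 14.2 CPM in the knockout libraries and 10.7, 20.2 and 10.5 in the controls. The groups overlapped, and the log2 fold change was -0.44 ± 0.45, -0.06 without control replicate 2 and 0.06 with library totals. Nars2, which charges the asparagine tRNA of mt-Tn, had -1.36 ± 0.59 and -0.53 without control replicate 2.

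The 26 nuclear subunits of the respiratory complexes all had negative fold changes, with and without control replicate 2 (medians -0.85 and -0.53). They summed to 5255, 4415 and 8018 CPM in the knockout libraries and 11315, 14219.5 and 5680 in the controls. Control replicate 3 thus lay among the knockouts. With library totals 24 did (median -0.36), and Ndufs7 (0.20) and Cox4i1 (0.10) were positive. Uqcrc2, a core subunit of complex III, had 104, 90.7 and 115 CPM in the knockout libraries and 239, 348 and 136 in the controls. Each control lay above each knockout, whereas the groups overlapped for all other subunits listed. The log2 fold change of Uqcrc2 was -1.22 ± 0.43, or -0.86 without control replicate 2. Of 10 regulators of mitochondrial biogenesis, 5 had negative and 5 positive fold changes, and 3 were negative without control replicate 2 or with library totals. Ppargc1a, a coactivator of mitochondrial gene programmes, had 2.58, 2.07 and 1.44 CPM in the knockout libraries and 2.21, 14.6 and 4.40 in the controls, and its groups overlapped. Ppara, a receptor for fatty acids that is abundant in liver, had 1.14, 1.12 and 1.13 CPM in the knockout libraries and 3.82, 55.1 and 5.94 in the controls, without overlap. Its log2 fold change was -4.25 ± 1.14, and -2.09 without control replicate 2 (DESeq2 adjusted p = 0.00447 and 0.00304). Ppara was the only gene of these 5 nuclear lists that DESeq2 called with all libraries.

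Levels of other cell types also differed between the libraries. The macrophage sums given above were higher in every knockout than in any control. Knockout replicates 1 and 2, which held the lowest mitochondrial shares, had the highest of these sums. Of the 15 macrophage markers, 12 had positive and 3 negative fold changes. In knockout replicate 3 the markers were mixed: Mrc1, for one, had 86.3 CPM there, below control replicates 1 (112) and 3 (107). The 14 adipocyte markers summed to 38331, 29876 and 75934 CPM in the knockout libraries and 80887, 7628 and 55251 in the controls. Control replicate 3, and control replicate 2 with its hepatocyte markers, thus had lower adipocyte sums than knockout replicate 3, but higher mitochondrial shares. The 5 erythroid markers summed to 1635, 582 and 2849 CPM in the knockout libraries and 20469, 3435 and 1459.6 in the controls. Control replicate 1, with the highest mitochondrial share, had the highest of both sums, while control replicate 3 had a lower erythroid sum than knockout replicates 1 and 3. Between knockout replicate 3 and control replicate 3, whose macrophage sums were 1189.7 and 920.0 CPM, the mitochondrial share differed least, 3.89% against 5.45%. The titles of these libraries carry numbers of another range than the other 4, and what the numbers stand for is not stated. Among those 4, the titles of the knockouts and of the controls again carry numbers of different ranges. A range thus holds both groups only for knockout replicate 3 and control replicate 3. There the knockout was below the control in mitochondrial share, as in every other pair of a knockout and a control. The pair is therefore no separate test of the ranges. The part of any of these cell types in the mitochondrial results was not tested.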

How the data were processed

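RNA-seq values for 3 knockout and 3 control libraries were used. The libraries are amplified cDNA of fragmented mRNA, per the labels' protocols. The submitters' processing notes name featureCounts 1.5.0-p3, HISAT2 2.0.5, fastp, StringTie 1.3.3b and build mm10. No source used here gives the strand setting, the treatment of reads with several matches or the annotation release. All tests use the raw counts that the authors deposited for 54532 identifiers. FPKM values, deposited as well, served for alternatives alone.

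GENCODE vM21 (GRCm38, which is mm10) gave symbols and positions and matched 54409 identifiers. Genes kept by filterByExpr were tested with the robust quasi-likelihood fit of edgeR 4.0.16 in R 4.3.3. TMM factors were 0.982 to 1.25, but 0.559 in control replicate 2. P-values were adjusted by Benjamini-Hochberg over all genes tested, and the threshold was 0.05. CPM values are scaled by TMM. Errors of fold changes are standard errors. DESeq2 1.42.0, limma-voom (limma 3.58.1), library totals, no filter, log2(FPKM + 1) and log2(FPKM + 0.1), a term for the range of the title number and each library left out in turn were alternatives. DESeq2 and library totals without control replicate 2, and shares without or with the nuclear copies, were added after the data were seen. Shares were compared with exact two-sided permutation tests over samples, and shares of single libraries have 95% Clopper-Pearson intervals. Sequence shared with nuclear genes was counted as 50-base windows of each mitochondrial gene found on either strand of an annotated nuclear transcript.

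Replicate numbers follow the sample records and pair nothing. No label says that the samples are separate animals, and p-values speak only of the spread among these samples, which may be technical. Between replicates chi-square per degree of freedom over all genes was 56.8 or more, so all 6 libraries were kept as samples. The tests were checked on simulated counts. All protein and rRNA genes were named; of the tRNA genes, mt-Te, its neighbours, the 3 of highest mean CPM and those whose groups did not overlap were named. Of each nuclear list, up to 3 genes of smallest p were to be named, beside Polrmt, Tfam, Lrpprc, Elac2, Trmt10c, Ears2 and Ppargc1a. The further tRNA genes and pseudogenes were named after their values were seen. The genes studied and the lists were chosen with earlier results of these data known.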

Additional observations from a re-analysis of the deposited data

How the results depend on the processing

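The mitochondrial share of counts kept its direction under every alternative run, with differences of -2.94 to -4.75 percentage points when each library was left out in turn. Genes called numbered 0 with edgeR, 530 with DESeq2 and 485 with DESeq2 without control replicate 2; for the mitochondrial genes these numbers were 0, 7 and 7. Over the 23 tested mitochondrial genes, 379 of 391 fold changes under alternatives kept their direction, and the 12 reversals belong to mt-Tg and mt-Tl2. The rRNA share of mitochondrial counts (knockout minus control, 0.198 percentage points) reversed without knockout replicates 1 (-0.0514) and 3 (-0.0119) and control replicates 1 (-0.334) and 3 (-0.344), and ran from -0.344 to 1.27 with each library left out. The mt-Nd6 share (0.336) reversed without knockout replicate 3 and ran from -0.0249 to 0.603.

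The log2 fold change of mt-Tg was 1.09 without control replicate 2, 1.08 without control replicates 2 and 3, 1.11 with DESeq2 without control replicate 2 and 1.28 with library totals without it. That of mt-Tl2 was 0.59 with limma-voom, 0.12 with library totals, 0.70 with FPKM and a pseudocount of 0.1, and 0.05 without knockout replicate 1. It was 0.43 without control replicate 2 with both edgeR and DESeq2, 0.46 with library totals, and 6.46 without control replicates 2 and 3, where it had 0 counts in the remaining control. Among nuclear genes, Tfam was 0.0674 with library totals without control replicate 2. Lrpprc was 0.0608 without control replicate 2 with edgeR and 0.0619 with DESeq2, 0.20 with library totals, and 0.23 without control replicates 2 and 3. Elac2 was 0.0472 with library totals, and Ears2 0.0645, or 0.0687 without control replicate 2. With each library left out in turn, mt-Tg ran from -2.76 to 1.09, mt-Tl2 from -1.06 to 0.43 and Lrpprc from -1.94 to 0.0608. The causes were not tested. No paired analysis was possible because the labels give no replicate numbers, and those used here only follow the order of the sample records. With the range of the title number as a term, edgeR called 0 genes, and all 23 mitochondrial fold changes stayed negative. The values of the 11 tRNA genes that reached at most 48 counts rest on few counts, and why these were few was not tested.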
